A study of Mus musculus with 12 samples.

Results

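The region difference between striatum and prefrontal cortex was described in mice lesioned with 6-hydroxydopamine (6-OHDA), a toxin taken up by catecholamine neurons. The libraries were chosen by their labels alone: 3 striatal and 3 prefrontal libraries of the lesioned mice, 6 of the 12 libraries in the series. All were made from C57BL/6J mice at postnatal day 24 (P24), the genotype label of the 6 reads ADHD, and both groups compared carry the lesion. The other 6 libraries, from control mice (label CTL) of the same strain and age, with 3 libraries per region, served only as a reference for the region difference. The study treats the lesioned mouse as a model of attention-deficit/hyperactivity disorder. The labels do not state the dose, route or day of the lesion, the sex of the mice or what the controls received. They also leave unstated whether replicate libraries stand for different mice, and the p-values therefore describe variation among these libraries, some or all of which may be technical.

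Most striatal neurons are GABA-releasing spiny projection neurons. They form a direct-pathway class that carries D1 dopamine receptors with substance P and dynorphin, and an indirect-pathway class that carries D2 dopamine receptors and an adenosine receptor with enkephalin. A small class of cholinergic interneurons supplies acetylcholine. The prefrontal cortex is built mainly of glutamate-releasing pyramidal neurons in layers, with several classes of GABA interneurons. Dopamine reaches both regions along axons of midbrain neurons, whose cell bodies lie outside either dissection, and it acts on cyclic AMP signalling through its receptors. In bulk tissue, fewer cells of a type and less RNA per cell cannot be told apart.

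The 6 libraries held 16539805 to 19943152 counts. Values are given as CPM, which are counts scaled to a common effective library size. The limit set by 3 counts, 0.155 to 0.181 CPM across libraries, covers counting error only. Of 21872 gene symbols in the table, 3732 were at 0 throughout and 1830 held only multiples of 11, which were left out. All 1830 of those rows are at 0 in prefrontal library 1, so leaving them out removes genes listed at 0 in a prefrontal library, some of which were high in the striatum. The first principal component held 81.1% of the variance and separated the regions, and 14206 genes passed the filter on low counts and were tested.

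Striatal library 1 stood apart from the other striatal libraries. On the second component, with 10.5% of the variance, it lay at 34.23, and striatal libraries 2 and 3 lay at -22.87 and -10.62. Correlations of log2 CPM were 0.98 and 0.985 between striatal library 1 and the other 2, 0.993 between striatal libraries 2 and 3, and 0.994 to 0.995 among the prefrontal libraries. Relative to the mean of striatal libraries 2 and 3, markers of striatal projection neurons were a median of 1.05 higher on the log2 scale in striatal library 1, cortical excitatory markers 0.68 higher, hypothalamic and basal forebrain border markers differed by -1.39 and septal and thalamic markers by -0.94. The biological coefficient of variation was 4.42% in the prefrontal cortex and 15.2% in the striatum, or 8.49% in the striatum without library 1. Counts of called genes are therefore given with and without that library for most lists, and fold changes or medians without it for some. All other values of the region difference include it. The part of dissection in its profile was not tested.

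Projection neuron markers were high in every library labelled striatum and cortical excitatory markers in every library labelled prefrontal cortex. The 17 striatal projection neuron markers summed to 2124, 1746 and 1957 CPM in the prefrontal libraries and 18828, 8163 and 11314 CPM in the striatal libraries. The 13 cortical excitatory neuron markers summed to 4343, 4521 and 4587 CPM in the prefrontal cortex and 599.7, 553 and 356 CPM in the striatum. No library of either region overlapped the other region in these sums, and no marker of either list was at 0 in all 3 libraries of a region.

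**Figure D1:**
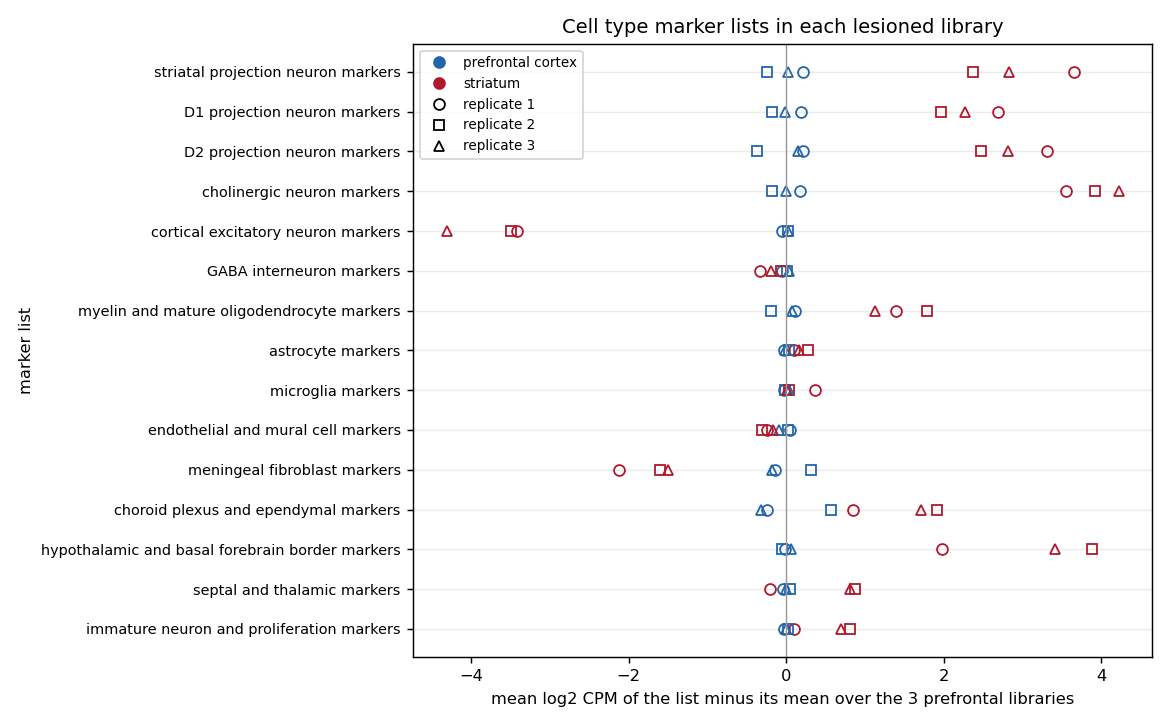
Mean log2 CPM of 15 cell type marker lists (rows) in each of the 6 lesioned libraries, minus the mean of that list over the 3 prefrontal libraries (horizontal axis, log2 units); colour gives the region and the symbol the replicate number. Projection neuron, cholinergic, myelin and border markers lay to the right in the striatum, cortical excitatory and meningeal markers to the left, and striatal library 1 (circle) held the most projection neuron and the fewest border markers of the 3 striatal libraries.

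In lesioned mice, 6426 of 14206 tested genes (45.2%) had an adjusted p below 0.05 in edgeR's quasi-likelihood test, and such genes are called here. Of these, 3223 were higher in the striatum (22.7% of genes tested) and 3203 were lower (22.5%), and these shares are the background against which each list below is read. Many differences were small: 2587 called genes had an absolute log2 fold change under 0.5, and the median absolute log2 fold change was 0.29 over all tested genes and 0.60 over called genes. The median signed log2 fold change was 0.021. Values in parentheses after a gene name are its log2 fold change of striatum over prefrontal cortex, with the standard error (SE) and the adjusted p of that edgeR test where given. The 3 libraries of one region lay wholly above or below those of the other in 8243 genes (58%), 4120 higher in the striatum (29%) and 4123 lower (29%). Tested against a difference of 2-fold (edgeR's glmTreat), 832 genes were called (5.86%), 387 of them higher in the striatum (2.72%) and 445 lower (3.13%). Without striatal library 1, 7721 of 14414 genes were called (53.6%), 3868 higher (26.8%) and 3853 lower (26.7%). All 6426 genes kept their sign without that library, and 6237 of them were called in the same direction. Beyond 2-fold, the count was 1202 without that library and 532 without prefrontal library 3.

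**Figure D2:**
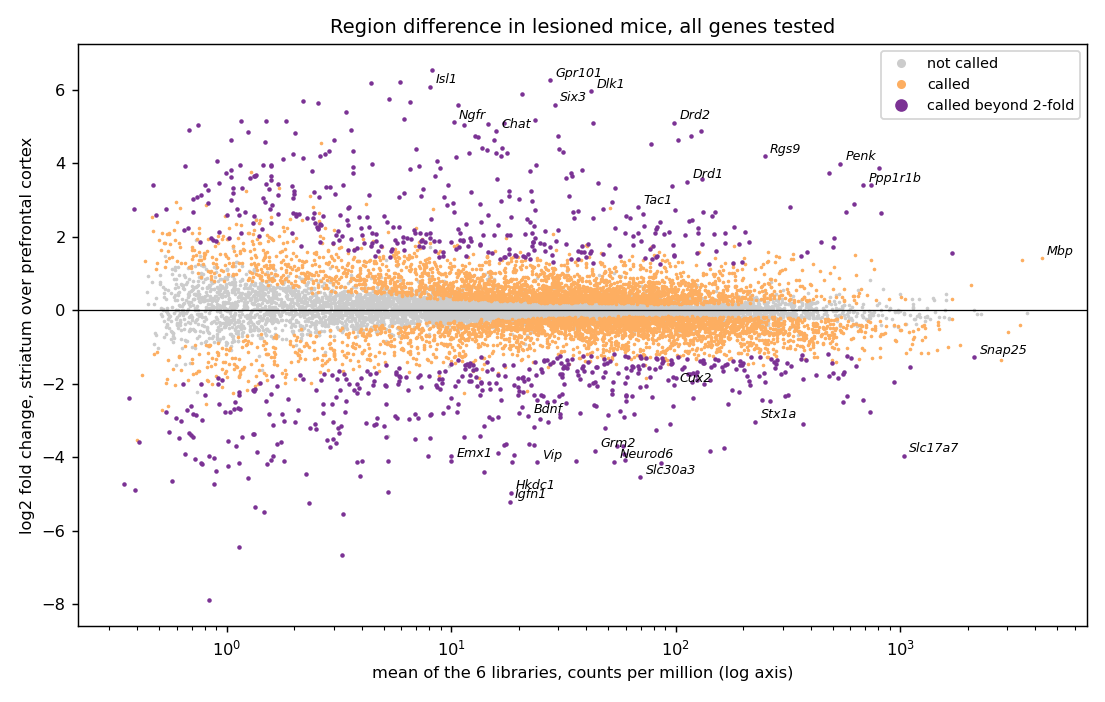
Log2 fold change of striatum over prefrontal cortex in lesioned mice (vertical axis) against the mean CPM of the 6 libraries (horizontal log axis), 1 point per tested gene; purple points are the 832 genes called beyond 2-fold. Drd2, Penk, Gpr101 and Dlk1 lie near the upper edge and Slc17a7, Slc30a3, Hkdc1 and Igfn1 near the lower edge.

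The 10 genes with the largest rise toward the striatum, among genes of at least 10 CPM whose libraries did not overlap, were Gpr101, Dlk1, Dgkk, Six3, Slc10a4, Sh3rf2, Ngfr, Arhgap36, Ecel1 and Drd2, with log2 fold changes from 5.10 to 6.27. Gpr101, an orphan receptor, was at 0.621, 0.475 and 1.01 CPM in the prefrontal libraries and 33.3, 69.98 and 59.5 CPM in the striatal libraries. Dlk1, an imprinted transmembrane ligand, was at 1.5, 1.07 and 1.37 CPM in the prefrontal cortex and 39.6, 102 and 107 CPM in the striatum. Gpr101 and Dlk1 are also on the list of hypothalamic and basal forebrain border markers, and the part of neighbouring tissue in their rise was not tested. Both were lowest in striatal library 1 among the striatal libraries and far above every prefrontal library (Gpr101 log2 fold change 6.27, SE 0.40, adjusted p 2.81e-05; Dlk1 5.96, SE 0.48, adjusted p 7.85e-05). The same order held for Dgkk (17.7, 52.9 and 51.8 CPM in the striatum), a diacylglycerol kinase, for Arhgap36 (11, 44.1 and 45.1 CPM) and for Ngfr (9.8, 22.3 and 27.7 CPM), the p75 neurotrophin receptor, which marks basal forebrain cholinergic neurons. The reverse order, highest in striatal library 1, held for Drd2, for Sh3rf2 (74.8, 26.5 and 37.2 CPM) and for the homeobox gene Six3 (65.9, 48.6 and 55.4 CPM, against 1.76, 0.475 and 1.19 CPM in the prefrontal cortex). Slc10a4, a vesicle protein of cholinergic and monoamine neurons, was at 22.8, 18 and 22.5 CPM in the striatum and 0.465, 0.297 and 0.536 CPM in the prefrontal cortex (log2 fold change 5.58, SE 0.21, adjusted p 4.6e-06).

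The 10 genes with the largest fall toward the striatum under the same rule were Igfn1, Hkdc1, Slc30a3, Serpinb8, Ccn3, Vip, Adra1d, Neurod6, Emx1 and Scube1, with log2 fold changes from -5.22 to -4.09. Slc30a3, the transporter that loads zinc into glutamate vesicles, was at 134, 136 and 131 CPM in the prefrontal libraries and 6.47, 5.56 and 5.14 CPM in the striatal libraries (log2 fold change -4.55, SE 0.091, adjusted p 9.58e-07). Hkdc1, a hexokinase family member, was at 38.2, 35.9 and 33 CPM and 1.03, 1.22 and 1.15 CPM (log2 fold change -4.96, SE 0.12, adjusted p 2.16e-06). Both had narrow ranges in each region, and the lack of overlap was a condition of the rule. Adra1d, an alpha-1 adrenergic receptor, was at 31.3, 38 and 37 CPM in the prefrontal cortex and 1.03, 3.23 and 1.67 CPM in the striatum. The secreted factor Ccn3 was at 151, 171 and 164 CPM and 12.7, 7.41 and 7.1 CPM. Among these 10 genes, only Neurod6 changed by more than 1.5 times without striatal library 1, from a log2 fold change of -4.13 to -4.88.

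Promoter sequence is shown for 2 genes higher and 2 lower in the striatum whose products define their neurons: Drd2 (gene at chr9:49340627-49408177, + strand), Chat (choline acetyltransferase, chr14:32408203-32465989, - strand), Slc17a7 (the vesicular glutamate transporter of cortical neurons, chr7:45163949-45176142, + strand) and Vip (chr10:5639218-5647617, + strand). Gene spans are from GENCODE on mm10. Each line gives the 250 bases before the RefSeq start site on GRCm38.p6, 5′ to 3′ on the gene's strand, with motif matches on either strand in capitals. The motif set held the core of the cyclic AMP response element, written TGACGT, and the promoter element called the TATA box, written TATAAA. It also held the binding site of Sp family factors known as the GC box, written GGGCGG, the E-box that neurogenic factors read, written CAGATG, and the site of early growth response factors, written GCGTGGGCG, which can overlap a GC box.
Drd2 (chr9:49340153-49340402, +): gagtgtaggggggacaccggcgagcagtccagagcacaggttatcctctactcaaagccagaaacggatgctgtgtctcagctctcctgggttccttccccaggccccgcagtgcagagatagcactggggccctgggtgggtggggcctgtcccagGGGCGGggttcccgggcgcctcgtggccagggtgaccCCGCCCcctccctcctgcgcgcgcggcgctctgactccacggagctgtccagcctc
Chat (chr14:32465910-32466159, -): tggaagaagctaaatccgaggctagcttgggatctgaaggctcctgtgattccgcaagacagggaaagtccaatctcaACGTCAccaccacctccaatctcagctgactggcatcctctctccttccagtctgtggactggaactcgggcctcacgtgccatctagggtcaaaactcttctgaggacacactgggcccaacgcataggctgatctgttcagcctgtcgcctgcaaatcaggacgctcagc
Slc17a7 (chr7:45163671-45163920, +): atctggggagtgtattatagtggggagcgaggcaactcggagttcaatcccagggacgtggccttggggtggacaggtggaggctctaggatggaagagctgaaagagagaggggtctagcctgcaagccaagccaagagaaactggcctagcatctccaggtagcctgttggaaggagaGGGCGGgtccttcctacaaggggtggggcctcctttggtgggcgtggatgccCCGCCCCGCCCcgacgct
Vip (chr10:5638968-5639217, +): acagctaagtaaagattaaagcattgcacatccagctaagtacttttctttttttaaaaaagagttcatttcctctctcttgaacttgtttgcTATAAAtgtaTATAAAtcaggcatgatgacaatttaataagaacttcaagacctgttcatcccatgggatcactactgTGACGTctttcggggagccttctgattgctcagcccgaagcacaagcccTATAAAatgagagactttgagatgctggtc
The Drd2 window held 2 GC boxes and was 68.8% G and C, and the Slc17a7 window held 3 GC boxes (2 of them overlapping or adjoining) and was 61.2% G and C. The Vip window held 3 TATA boxes and 1 cyclic AMP response element core at 38.4% G and C, and the Chat window held 1 such core. Windows of Tac1 and Neurod6 were also searched and are not shown, with 2 matches in Tac1 and 0 in Neurod6. Over all 27025 RefSeq windows, 32.9% held a GC box, 13% a TATA box, 6.56% a cyclic AMP response element core, 14.5% the E-box and 0.54% the early growth response site. Among the 79.1% of tested genes that had a window, these shares were 58.8%, 6.37%, 9.84%, 9.97% and 1.02% in the same order. A match is a description of letters only. A comparison of motif shares between the genes called higher and lower beyond 2-fold is void, because only 77.0% and 72.4% of them had a window.

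Projection neuron genes rose together in the striatum. All 17 tested striatal projection neuron markers were called higher, 15 of them beyond 2-fold, with a median log2 fold change of 2.89 (2.46 without striatal library 1, where all 17 were also called). Ppp1r1b, which encodes the dopamine-regulated phosphatase inhibitor DARPP-32, was at 135, 93.8 and 127 CPM in the prefrontal libraries and 1892, 759 and 1106 CPM in the striatal libraries. Pde10a, the main cyclic nucleotide phosphodiesterase of these neurons, was at 122, 78.8 and 107 CPM and 2400.4, 846 and 1255 CPM, and Rgs9, which shortens G protein signals, at 35.9, 16 and 25.4 CPM and 707, 280.3 and 430.0 CPM. In each of these genes striatal library 1 was the highest and striatal library 2 the lowest, with every striatal library above every prefrontal library. The log2 fold changes were 3.40, SE 0.34, adjusted p 0.000211 for Ppp1r1b, 3.87, SE 0.40, adjusted p 0.000241 for Pde10a and 4.19, SE 0.42, adjusted p 0.00021 for Rgs9. Rarb, a retinoic acid receptor, rose as well (3.34, SE 0.28, adjusted p 9.24e-05).

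Markers of both projection neuron classes rose. Of 9 D1 class markers 8 were called higher and none lower (median log2 fold change 2.47; 8 and 1 without striatal library 1), and of 8 D2 class markers 6 were called higher and 1 lower (median 3.55; 6 and 2 without striatal library 1). In the D1 class, Tac1, the precursor of substance P, was at 17.1, 15 and 18.8 CPM in the prefrontal cortex and 171, 79.5 and 106 CPM in the striatum (log2 fold change 2.81, SE 0.28, adjusted p 0.000201). Pdyn, the dynorphin precursor, was at 31.6, 27.1 and 30.8 CPM and 96.9, 62 and 91 CPM, a smaller difference (1.48, SE 0.17, adjusted p 0.000356). Isl1, a transcription factor of D1 class and cholinergic neurons, was near the floor in the prefrontal cortex with 6, 3 and 3 counts and at 14.1, 16.8 and 16.9 CPM in the striatum. In the D2 class, Penk, the enkephalin precursor, was at 69.3, 48.1 and 74.3 CPM and 1304, 736 and 1022 CPM (log2 fold change 4.0, SE 0.26, adjusted p 3.03e-05). Adora2a, the striatal adenosine receptor, was at 11.8, 3.5 and 9.998 CPM and 395, 139 and 219 CPM (4.88, SE 0.52, adjusted p 0.000291). Gpr6, a constitutively active receptor of the D2 class, rose (4.30, SE 0.34, adjusted p 7.86e-05), as did the factor Sp9 (2.40, SE 0.17, adjusted p 4.85e-05). The members that were not called higher were Eya1 (log2 fold change -0.55) and Grik3 (-0.12), neither called, and Plxdc1 (-0.65), called lower.

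Of the dopamine receptor genes, Drd1, Drd2 and Drd3 were called higher in the striatum and Drd5 was not called. Drd1, which raises cyclic AMP, was at 23.8, 13.2 and 17.6 CPM in the prefrontal libraries and 316, 127 and 179 CPM in the striatal libraries (log2 fold change 3.51, SE 0.37, adjusted p 0.000282). Drd2, which lowers cyclic AMP, was at 8.07, 2.32 and 6.19 CPM and 284, 118 and 174 CPM (log2 fold change 5.10, SE 0.47, adjusted p 0.000145). Both followed the order of the projection neuron markers, with striatal library 1 highest and prefrontal library 2 lowest, and their regions did not overlap. Drd3, a receptor of the ventral striatum and islands of Calleja, had 3, 0 and 0 counts in the prefrontal cortex and 1.51, 2.12 and 3.18 CPM in the striatum, where library 1 was the lowest. Its fitted log2 fold change of 5.17 (adjusted p 0.000858) depends on the prior count. Drd5 was at 3.31, 3.5 and 4.05 CPM and 4.11, 5.24 and 5.48 CPM (log2 fold change 0.45, SE 0.17, adjusted p 0.0637), and it was called without striatal library 1 (0.56, adjusted p 0.0169). Drd4 did not pass the filter, with 4, 10 and 17 counts in the prefrontal cortex and 4, 3 and 4 in the striatum.

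**Figure D3:**
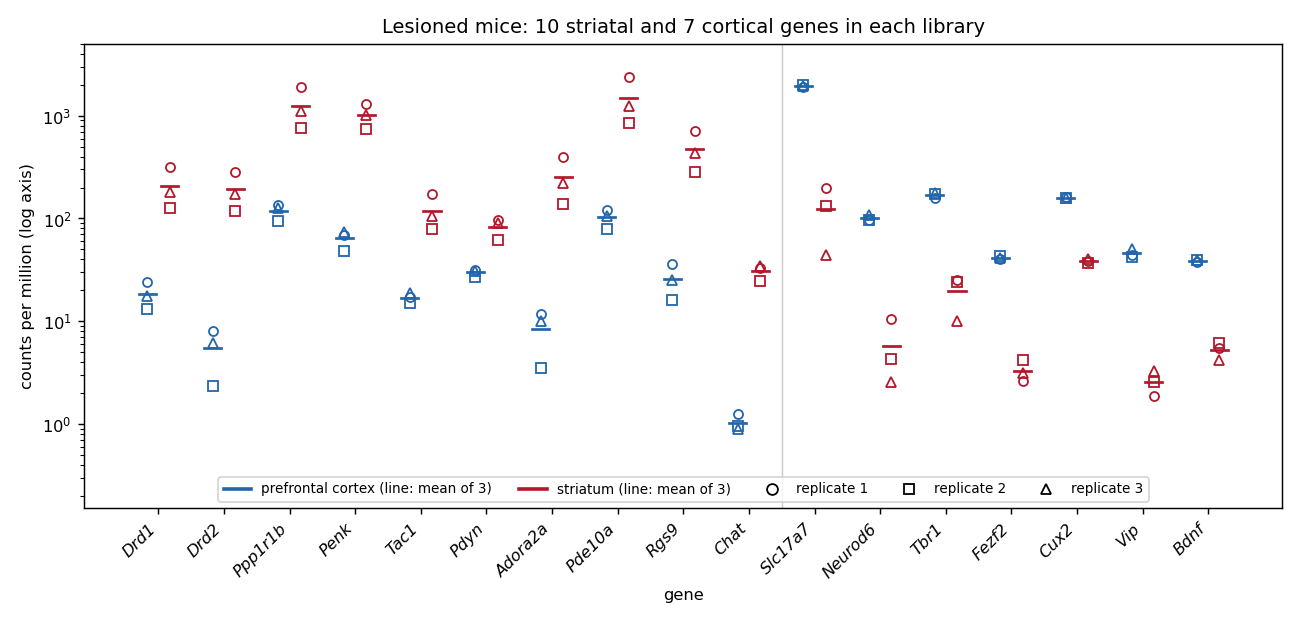
CPM (log axis) of 10 striatal and 7 cortical genes in each lesioned library, prefrontal cortex in blue and striatum in red, with a line at the mean of 3 libraries and the symbol giving the replicate number. No gene overlapped between regions, striatal library 1 (circle) was the highest striatal library for Drd1, Drd2, Ppp1r1b, Penk, Tac1, Pdyn, Adora2a, Pde10a and Rgs9, and striatal library 3 (triangle) was the lowest for Slc17a7, Neurod6 and Tbr1.

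Transcripts for dopamine synthesis and storage were, where called, higher in the striatum. Of 12 tested genes of dopamine synthesis, transport and breakdown 5 were called higher and none lower (median log2 fold change 0.44; 7 and 1 without striatal library 1). Th, tyrosine hydroxylase, the rate-limiting enzyme, was at 2.22, 2.97 and 2.68 CPM in the prefrontal cortex and 9.19, 11 and 13.3 CPM in the striatum, with no overlap (2.09, SE 0.19, adjusted p 0.000134). Ddc, which makes dopamine from L-DOPA, was at 4.65, 3.98 and 5.12 CPM and 10.3, 17.3 and 13.8 CPM (1.59, SE 0.21, adjusted p 0.000733). Among the striatal libraries, Th and Ddc were lowest in library 1, as were the summed hypothalamic and basal forebrain border markers. The part of neighbouring tissue in the rise of Th and Ddc was not tested. The other called members were the vesicular transporter Slc18a2 (log2 fold change 4.21), the low-affinity uptake transporter Slc22a3 (1.48) and Qdpr (0.72), which recycles the cofactor of tyrosine hydroxylase. The breakdown enzymes Maoa (0.24) and Maob (-0.12) were not called. Slc6a3, the dopamine transporter of midbrain neurons, did not pass the filter, with 4, 4 and 7 counts in the prefrontal cortex and 5, 4 and 18 in the striatum. Nr4a2, a transcription factor of midbrain dopamine neurons and of deep cortical neurons, was at 30.5, 27 and 25.5 CPM in the prefrontal cortex and 43.4, 7.36 and 5.2 CPM in the striatum. Only striatal library 1 was high, so the log2 fold change was -0.58, SE 0.68, adjusted p 0.515 with it and -2.14 (adjusted p 7.46e-07) without it.

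Downstream of the receptors, several genes typical of striatal cyclic AMP signalling rose. Of 32 signalling genes, 14 were called higher and 6 lower (median log2 fold change 0.28; 17 and 8 without striatal library 1). The share called lower was below that of all genes tested (22.5%), and the share called higher was above it (22.7%). Beside Rgs9 and Pde10a, the higher members included Gng7 (log2 fold change 2.89), Adcy5 (2.65) and Gnal (1.71), which form the G protein and adenylyl cyclase that D1 and striatal adenosine receptors use. Adcy1, a calcium-stimulated adenylyl cyclase, was at 1471, 1505 and 1497 CPM in the prefrontal libraries and 458, 351 and 337 CPM in the striatal libraries (log2 fold change -1.96, SE 0.12, adjusted p 2.91e-05). Adcy2 (-1.20) and the protein kinase A subunit Prkar1b (-1.27) were also lower. The catalytic subunits Prkaca (-0.033) and Prkacb (-0.007) were not called.

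Phosphodiesterases, which break down cyclic nucleotides, and regulators of G protein signalling changed in both directions. In each of these lists the share called lower was near that of all genes tested (22.5%). Of 19 phosphodiesterase genes 9 were called higher and 4 lower (median log2 fold change 0.36; 10 and 4 without striatal library 1). Pde1c was at 8.22, 7.19 and 8.51 CPM in the prefrontal cortex and 40.04, 34.8 and 42.3 CPM in the striatum, and its relative Pde1a ran the other way, at 317, 319.7 and 324 CPM and 93.3, 98.5 and 89 CPM. Their log2 fold changes were 2.29, SE 0.11, adjusted p 9.34e-06 and -1.78, SE 0.066, adjusted p 4.6e-06. Pde3a rose too (2.12, SE 0.18, adjusted p 0.000116). Of 17 regulators of G protein signalling 6 were called higher and 4 lower (median 0.19; 7 and 5 without striatal library 1). Rgs2 (1.47) and Rgs10 (1.09) rose beside Rgs9, and Rgs6 (-1.60) and Rgs7 (-0.82) fell.

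Neuropeptide precursors split by region. Of 25 tested precursor genes 9 were called higher in the striatum and 10 lower (median log2 fold change -0.031; 11 and 11 without striatal library 1). The opioid and tachykinin precursors Penk, Tac1 and Pdyn were higher, as were Nts, the neurotensin precursor (log2 fold change 4.76), and Trh (4.18), the thyrotropin-releasing hormone precursor. Trh is also on the list of hypothalamic and basal forebrain border markers. The precursors of vasoactive intestinal peptide and cholecystokinin were lower. Vip was at 43.8, 42.2 and 50.8 CPM in the prefrontal libraries and 1.88, 2.54 and 3.29 CPM in the striatal libraries (log2 fold change -4.14, SE 0.17, adjusted p 6.49e-06), and Cck had a log2 fold change of -3.75. The granin Chgb (-1.06) and the growth factor Igf1 (-1.67) were also lower.

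Of 25 peptide receptor genes 7 were called higher and 9 lower (median log2 fold change -0.30; 9 and 10 without striatal library 1). Tacr1, the substance P receptor, was at 3.46, 2.79 and 2.74 CPM in the prefrontal cortex and 48.8, 34.4 and 42.9 CPM in the striatum, and Tacr3, the neurokinin B receptor, was at 1.19, 0.832 and 0.893 CPM and 14, 15.8 and 19.5 CPM. Both rose without overlap (log2 fold changes 3.80, SE 0.17, adjusted p 7.78e-06 and 4.06, SE 0.20, adjusted p 1.12e-05). The opioid receptors Oprm1 (1.66) and Oprk1 (1.80) were called higher and Oprd1 (-0.30) was not called. Cckbr, the brain cholecystokinin receptor, ran with its ligand, at 89, 90.05 and 84.4 CPM in the prefrontal cortex and 11.3, 10.005 and 7.04 CPM in the striatum (log2 fold change -3.22, SE 0.15, adjusted p 8.54e-06). Crhr1 (-1.93) and the somatostatin receptors Sstr1 (-1.49), Sstr2 (-1.36), Sstr3 (-2.32) and Sstr4 (-1.82) were lower.

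Cholinergic neuron genes rose in the striatum, with the highest median of the lists tested. Of 7 tested markers 6 were called higher and none lower (median log2 fold change 4.40; 7 and 0 without striatal library 1), and the seventh, Zic4, had a log2 fold change of 1.73 (adjusted p 0.0666). Chat, which makes acetylcholine, was at 1.24, 0.95 and 0.893 CPM in the prefrontal libraries and 33, 24.5 and 34.1 CPM in the striatal libraries (log2 fold change 4.87, SE 0.20, adjusted p 6.49e-06). Slc5a7, the choline transporter, was at 2.69, 2.02 and 3.51 CPM and 59.1, 50.9 and 64 CPM (4.40, SE 0.17, adjusted p 5.81e-06). Lhx8, a transcription factor of forebrain cholinergic neurons, had 4, 2 and 3 counts in the prefrontal cortex and 12, 15.6 and 21.4 CPM in the striatum. The summed level of the list was 68.9, 62.3 and 62.4 CPM in the prefrontal cortex and 245, 301 and 355 CPM in the striatum, lowest in striatal library 1. In striatal library 1 its members differed from the mean of the other striatal libraries by a median of 0.05 on the log2 scale, against 1.05 for the projection neuron markers.

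Receptors for acetylcholine and adenosine differed member by member. Of 9 adenosine and muscarinic receptor genes 4 were called higher and 3 lower, the same counts without striatal library 1 (median log2 fold change 0.28). Besides Adora2a, the higher members were Chrm5 (log2 fold change 4.14), Chrm4 (0.94) and Chrm2 (0.80). Chrm5 was near the floor in the prefrontal cortex, with 1, 6 and 5 counts. Chrm3 was at 93.5, 95.2 and 94.7 CPM in the prefrontal cortex and 29.1, 28.5 and 23.3 CPM in the striatum (-1.81, SE 0.090, adjusted p 1.12e-05), and Chrm1 (-1.01) and Adora1 (-0.88) were lower too. Of 8 nicotinic receptor genes 2 were called higher and 3 lower (median -0.25; 2 and 4 without striatal library 1). Chrna4 was at 56.1, 61.9 and 58.8 CPM and 25.5, 22.7 and 18.6 CPM (log2 fold change -1.41, SE 0.11, adjusted p 8.01e-05), Chrnb3 (-3.03) and Chrna5 (-1.86) were lower, and Chrnb2 (0.32) and Chrna3 (1.29) were higher. Chrnb3 was near the floor in the striatum, with 6, 8 and 9 counts.

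Serotonin receptors were divided between the regions and adrenergic receptors were mostly lower in the striatum. Of 12 serotonin receptor genes 4 were called higher and 4 lower (median log2 fold change 0.39; 5 and 4 without striatal library 1). Htr2c was at 26.5, 33.5 and 27 CPM in the prefrontal cortex and 133, 119 and 151 CPM in the striatum, and Htr1b, an inhibitory receptor found on projection neuron axons, was at 12, 12.2 and 12.5 CPM and 114, 60.1 and 72.7 CPM. Their log2 fold changes were 2.21, SE 0.12, adjusted p 1.67e-05 and 2.75, SE 0.23, adjusted p 0.000104. Htr5a, at 33.4, 34.6 and 34.6 CPM and 13, 13.2 and 12.6 CPM, was lower (-1.40, SE 0.070, adjusted p 1.12e-05), as were Htr3a (-2.02), the channel receptor of a class of cortical interneurons, and Htr2a (-1.26). Of 9 adrenergic receptor genes 2 were called higher and 5 lower, the same counts without striatal library 1 (median log2 fold change -0.74). Adra1b was at 31.3, 32.2 and 35.5 CPM and 5.75, 8.63 and 7.27 CPM (-2.19, SE 0.14, adjusted p 3.17e-05), and Adrb1 (-1.44) was lower as well. The alpha-2 receptors Adra2b (3.97) and Adra2c (1.36) were higher, and Adra2a (-0.16), a target of drugs for attention-deficit/hyperactivity disorder, was not called. Adra2b was near the floor in the prefrontal cortex, with 6, 0 and 3 counts.

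Cortical excitatory neuron genes fell together. All 13 tested markers were called lower in the striatum, each beyond 2-fold, with a median log2 fold change of -3.83 (-4.13 without striatal library 1, with 13 of 13 called). Slc17a7 was at 1885, 1994 and 1967 CPM in the prefrontal libraries and 197, 133 and 44.3 CPM in the striatal libraries (log2 fold change -3.96, SE 0.49, adjusted p 0.000549). Neurod6 was at 96.7, 97.2 and 107 CPM and 10.6, 4.23 and 2.54 CPM (-4.13, SE 0.39, adjusted p 0.000163). In both genes striatal library 1 held the most and striatal library 3 the least, and no striatal library reached the prefrontal range. Tbr1, a deep layer factor, fell (-3.09, SE 0.29, adjusted p 0.00017), as did the activity-dependent factor Mef2c (-2.50, SE 0.14, adjusted p 1.76e-05).

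Genes named for cortical layers were less uniform than the pan-excitatory markers. Of 9 layer 5 markers 6 were called lower and none higher (median log2 fold change -0.65; 6 and 1 without striatal library 1), of 8 upper layer markers 3 were called lower and 3 higher, the same counts without striatal library 1 (median 0.092), and of 9 layer 6 and subplate markers 5 were called lower and 3 higher, also unchanged in count (median -0.34). Fezf2, the selector of layer 5 subcortical neurons, was at 40.02, 43.1 and 41.1 CPM in the prefrontal cortex and 2.6, 4.18 and 3.12 CPM in the striatum (-3.64, SE 0.15, adjusted p 6.49e-06). Cux2, an upper layer factor, was at 160.4, 159 and 157 CPM and 38.4, 36.6 and 40.7 CPM (-2.04, SE 0.063, adjusted p 4.6e-06). Both had narrow ranges in each region. The members higher in the striatum were Mdga1 (log2 fold change 1.30), Otof (0.99), Pou3f1 (0.69), Syt6 (1.76), Tle4 (0.61) and Nxph4 (0.66).

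The transcription factor lists separated in the same way. Of 24 cortical transcription factors 19 were called lower in the striatum and 2 higher (median log2 fold change -1.69; 21 and 2 without striatal library 1), and of 20 striatal identity factors 17 were called higher and none lower (median 1.98; 19 and 0 without striatal library 1). Neurod1 was at 10.7, 10.8 and 8.39 CPM in the prefrontal cortex and 0.302, 0.688 and 0.693 CPM in the striatum, and Satb1 was at 157, 154 and 159.8 CPM and 36.5, 51 and 43.1 CPM (log2 fold changes -4.12, SE 0.26, adjusted p 2.81e-05 and -1.85, SE 0.12, adjusted p 2.64e-05). Cux1 (-0.10) and Egr3 (-0.38) were not called. On the striatal side, Dlx5, which specifies GABA neurons, was at 5.07, 4.99 and 4.28 CPM and 18.3, 16.2 and 18.7 CPM (1.89, SE 0.12, adjusted p 2.63e-05), and Zfp521 rose (2.07, SE 0.14, adjusted p 3.49e-05). Bcl11b (CTIP2) was at 85.9, 81.9 and 80.6 CPM and 413, 167 and 261 CPM (1.76, SE 0.29, adjusted p 0.00207). Foxp1 was at 117, 112 and 124 CPM and 346, 154 and 219 CPM, and its log2 fold change was 1.02, SE 0.26, adjusted p 0.0137 with striatal library 1 and 0.66 without it.

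GABA interneuron markers and genes of GABA and glycine signalling changed in both directions. Of 15 interneuron markers 6 were called higher and 6 lower (median log2 fold change 0.15; 8 and 6 without striatal library 1). Sst, the somatostatin precursor, was at 168, 171 and 160.2 CPM in the prefrontal libraries and 131, 105 and 112 CPM in the striatal libraries (-0.52, SE 0.090, adjusted p 0.00272). Pvalb, parvalbumin of fast-spiking neurons, was at 33, 30.1 and 37.7 CPM and 7.32, 24.8 and 5.43 CPM, with striatal library 2 close to the prefrontal range (-1.41, SE 0.48, adjusted p 0.0465). Nos1, neuronal nitric oxide synthase, was at 47.6, 53.1 and 49.3 CPM and 122, 107 and 133 CPM (1.27, SE 0.092, adjusted p 5.09e-05), and Chodl, which marks the same class of neurons, rose too (2.25, SE 0.31, adjusted p 0.000989). Of 27 GABA and glycine genes 12 were called higher and 7 lower (median 0.23; 15 and 9 without striatal library 1). Gad2, a GABA-synthesising enzyme, was at 183, 192 and 207 CPM and 561, 731 and 801 CPM, and Slc32a1, the vesicular GABA transporter, was at 86.2, 84.7 and 84.7 CPM and 302, 265 and 332 CPM. Their log2 fold changes were 1.85, SE 0.14, adjusted p 5.33e-05 and 1.81, SE 0.091, adjusted p 1.13e-05, against 0.88, SE 0.084, adjusted p 0.000175 for Gad1. The breakdown enzyme Abat rose (1.19) and the GABA-B receptor subunit Gabbr2 fell (-1.88).

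Genes of synaptic release and of the postsynaptic density were mostly lower in the striatum. Of 40 presynaptic genes 25 were called lower and 7 higher (median log2 fold change -0.57; 28 and 8 without striatal library 1). Stx1a, a syntaxin of the fusion machinery, was at 424, 399 and 386 CPM in the prefrontal cortex and 59.3, 48 and 40.2 CPM in the striatum (-3.04, SE 0.14, adjusted p 8.81e-06). Snap25, its fusion partner, was at 2925, 2979 and 3179.9 CPM and 1272, 1259.9 and 1205 CPM (-1.28, SE 0.079, adjusted p 2.61e-05). Sv2c, a vesicle protein of basal ganglia neurons, ran the other way at 38.1, 40.04 and 43.4 CPM and 280.1, 212 and 281 CPM (2.67, SE 0.13, adjusted p 9.28e-06). Of 21 postsynaptic scaffold genes 11 were called lower and 1, Homer3 (0.53), higher (median -0.48; 17 and 1 without striatal library 1). Dlgap1 was at 718, 755 and 769 CPM and 212, 221 and 216 CPM (-1.79, SE 0.068, adjusted p 4.73e-06), Shank1 had a log2 fold change of -1.72 and Camk2a one of -1.36, and Shank3 (0.46) was not called. Of 24 glutamate receptor genes 8 were called higher and 8 lower (median -0.028; 9 and 12 without striatal library 1). Grm2, a presynaptic group II receptor, fell from 84, 81.9 and 79.4 CPM to 2.6, 7.57 and 7.04 CPM (-3.82, SE 0.28, adjusted p 5.8e-05), and the kainate receptor subunit gene Grik2 (1.22) rose. Of the vesicular glutamate transporters, Slc17a8 was higher (1.88, SE 0.23, adjusted p 0.000556), and Slc17a6, the thalamic and hypothalamic form, was at 18.3, 22.4 and 22.6 CPM and 17.1, 64.3 and 51.4 CPM, low only in striatal library 1 (1.07, SE 0.41, adjusted p 0.0659, and 1.46 with adjusted p 1.98e-06 without it).

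Endocannabinoid genes were lower in the striatum in 8 of 9 cases, with none higher and the same counts without striatal library 1 (median log2 fold change -0.72). Faah, which breaks down anandamide, was at 121, 124 and 112 CPM in the prefrontal cortex and 31.6, 39.5 and 30.6 CPM in the striatum (-1.81, SE 0.10, adjusted p 2.04e-05), and Mgll, which breaks down 2-arachidonoylglycerol, was at 350.5, 349.5 and 340.0 CPM and 196, 146 and 155 CPM (-1.06, SE 0.11, adjusted p 0.000269). The receptor gene Cnr1 (0.45) was the member not called.

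Potassium channel genes were more often lower than higher. Of 53 potassium channel genes 29 were called lower and 10 higher (median log2 fold change -0.48; 36 and 12 without striatal library 1). Kcnh7 was at 284, 299.7 and 291 CPM in the prefrontal libraries and 47.9, 55.5 and 44.8 CPM in the striatal libraries (-2.56, SE 0.091, adjusted p 4.6e-06), and Kcnj9, a G protein-gated inward rectifier, was at 232, 219 and 222 CPM and 61.9, 63.3 and 55.3 CPM (-1.90, SE 0.073, adjusted p 5.07e-06). Kcnn3, a small-conductance calcium-activated channel, was higher in the striatum (1.54, SE 0.075, adjusted p 1.06e-05). Of 33 sodium, calcium and HCN channel genes 13 were called higher and 14 lower (median -0.24; 13 and 17 without striatal library 1). Scn9a rose (3.23, SE 0.28, adjusted p 0.000114), and the calcium channel subunits Cacna2d2 (2.10) and Cacna2d1 (-1.32) ran in opposite directions. Of 18 calcium-binding protein genes 6 were called higher and 9 lower (median -0.39; 8 and 10 without striatal library 1), with Necab2 (2.40) and Necab3 (-2.61) again opposed.

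Activity-regulated genes were lower in the striatum or not called. Of 26 immediate early genes 15 were called lower and none higher (median log2 fold change -0.60; 22 and 1 without striatal library 1). Bdnf, a neurotrophin made by cortical neurons and carried to the striatum along their axons, was at 37.6, 39.6 and 39 CPM in the prefrontal cortex and 5.44, 6.09 and 4.16 CPM in the striatum (-2.88, SE 0.13, adjusted p 7.78e-06). Fos was at 36.7, 39.7 and 35.5 CPM and 13.3, 15.5 and 15.2 CPM (-1.34, SE 0.088, adjusted p 3.3e-05), and Ier2 was at 11.7, 12.8 and 11.2 CPM and 2.48, 3.07 and 2.89 CPM (-2.08, SE 0.13, adjusted p 3.09e-05). These 3 genes had no overlap between regions. Nptx2 fell too (-1.58), while Egr1 (-0.46) and Npas4 (-0.30) were not called. Of 18 neurotrophin and GDNF family genes 6 were called higher and 7 lower, the same counts without striatal library 1 (median -0.11). Ngfr (5.12), which marks basal forebrain cholinergic neurons, was higher, as was the dopamine neuron trophic factor Gdnf (4.34), whereas Nrg3 (-1.53) was lower. Among the striatal libraries Ngfr was lowest in library 1, and the part of neighbouring tissue in its rise was not tested.

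Myelin genes and most oligodendrocyte precursor and committed cell markers were higher in the striatum. Astrocyte, microglia and vascular markers had smaller medians, though vascular markers were called lower more often than all genes tested (22.5%). All 15 myelin markers were called higher, with log2 fold changes between 1.27 and 1.58 (15 of 15 also without striatal library 1), and their sums were 7139, 5541 and 6730.0 CPM in the prefrontal libraries and 17310.2, 24350.5 and 14841 CPM in the striatal libraries. Mag, a myelin adhesion protein, was at 211, 163 and 199 CPM and 527, 632 and 436 CPM (1.48, SE 0.15, adjusted p 0.000254), highest in striatal library 2. Of 15 precursor and committed cell markers 12 were called higher and 1 (Tnr, -0.27) lower, the same counts without striatal library 1 (median 0.53), with Sox10 at 1.21, SE 0.12, adjusted p 0.000244 and Olig2 at 0.89, SE 0.10, adjusted p 0.000436. Of 17 astrocyte markers 7 were called higher and 1 (Slc1a2, -0.39) lower (median 0.16; 10 and 2 without striatal library 1), led by the bicarbonate transporter Slc4a4 (1.11, SE 0.090, adjusted p 8.46e-05). Of 15 microglia markers only Sall1 (0.48, SE 0.094, adjusted p 0.00488) was called (1 higher and 1 lower without striatal library 1), below the share of all genes. Of 15 endothelial and mural markers 8 were called lower and none higher, the same counts without striatal library 1 (median -0.25), Cdh5 among them (-0.50, SE 0.10, adjusted p 0.00489).

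Meningeal fibroblast markers were lower in the striatum of lesioned mice. All 12 were called lower (12 also without striatal library 1), with a median log2 fold change of -1.72, and their sums were 689, 806 and 672 CPM in the prefrontal cortex and 152, 325 and 228 CPM in the striatum. Slc22a6, an organic anion transporter, was at 4.65, 7.31 and 4.94 CPM in the prefrontal cortex and 0.544, 0.582 and 0.693 CPM in the striatum (-3.20, SE 0.27, adjusted p 0.000101). Slc13a4, a sulfate transporter of the meninges, was at 10.1, 14.6 and 9.94 CPM and 0.544, 1.8 and 2.02 CPM (-2.96, SE 0.36, adjusted p 0.000524). In both genes prefrontal library 2 was the highest. The meninges cover the cortical surface, and how much of them each dissection held was not tested.

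Markers of tissue bordering the striatum were higher in the striatal libraries and uneven among them. Of 13 tested hypothalamic and basal forebrain border markers 12 were called higher (13 of 14 tested without striatal library 1), with a median log2 fold change of 3.57, and the sums were 147, 149 and 140.0 CPM in the prefrontal cortex and 516, 1523 and 1395 CPM in the striatum. Peg10, an imprinted gene, was at 19.4, 20.1 and 21.3 CPM and 136, 313 and 274 CPM (3.57, SE 0.30, adjusted p 9.82e-05), and Nkx2-1, a factor of the ventral forebrain, had 5, 3 and 2 counts and 7.8, 11.3 and 12.2 CPM (5.74, SE 0.32, adjusted p 1.76e-05). Several of the 9 untested members were peptides found only in some striatal libraries: Avp had 2, 1 and 6 counts in the prefrontal cortex and 5, 314 and 625 in the striatum, and Pmch had 1, 6 and 3 counts and 2, 286 and 1. Another 6 untested members were among the rows of multiples of 11. Oxt, the oxytocin precursor, is listed at 0, 0 and 0 in the prefrontal cortex and at 33, 5819 and 4829 in the striatum. The scale of these entries is not known and they were not tested. Of 12 septal and thalamic markers 4 were called higher and 2 lower (8 and 3 without striatal library 1; median 0.97), with Tcf7l2 (1.90, SE 0.18, adjusted p 0.000153) and Ramp3 (-1.91, SE 0.15, adjusted p 8.03e-05) opposed. Of 11 choroid plexus and ependymal markers 8 were called higher and none lower (11 and 1 of 13 tested without striatal library 1; median 1.67), Clic6 at 0.724, 1.01 and 1.13 CPM and 24, 23.8 and 28.1 CPM (4.73, SE 0.17, adjusted p 4.6e-06) and the ciliary factor Foxj1 (1.75, SE 0.17, adjusted p 0.000221) among them. Ttr, the main choroid plexus transcript, was at 0.362, 28.5 and 0.0595 CPM and 0.0605, 1.59 and 0.924 CPM, so that only prefrontal library 2 was high (log2 fold change -3.43, SE 1.70, adjusted p 0.137). The part of neighbouring tissue in the genes that rose with these lists was not tested. Of 19 immature neuron and proliferation markers 9 were called higher and 1, Stmn2 (-1.0), lower (13 and 2 without striatal library 1; median 0.59), with Sox11 (1.03, SE 0.13, adjusted p 0.000615) and Mki67 (1.37, SE 0.21, adjusted p 0.00156) higher.

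**Figure D4:**
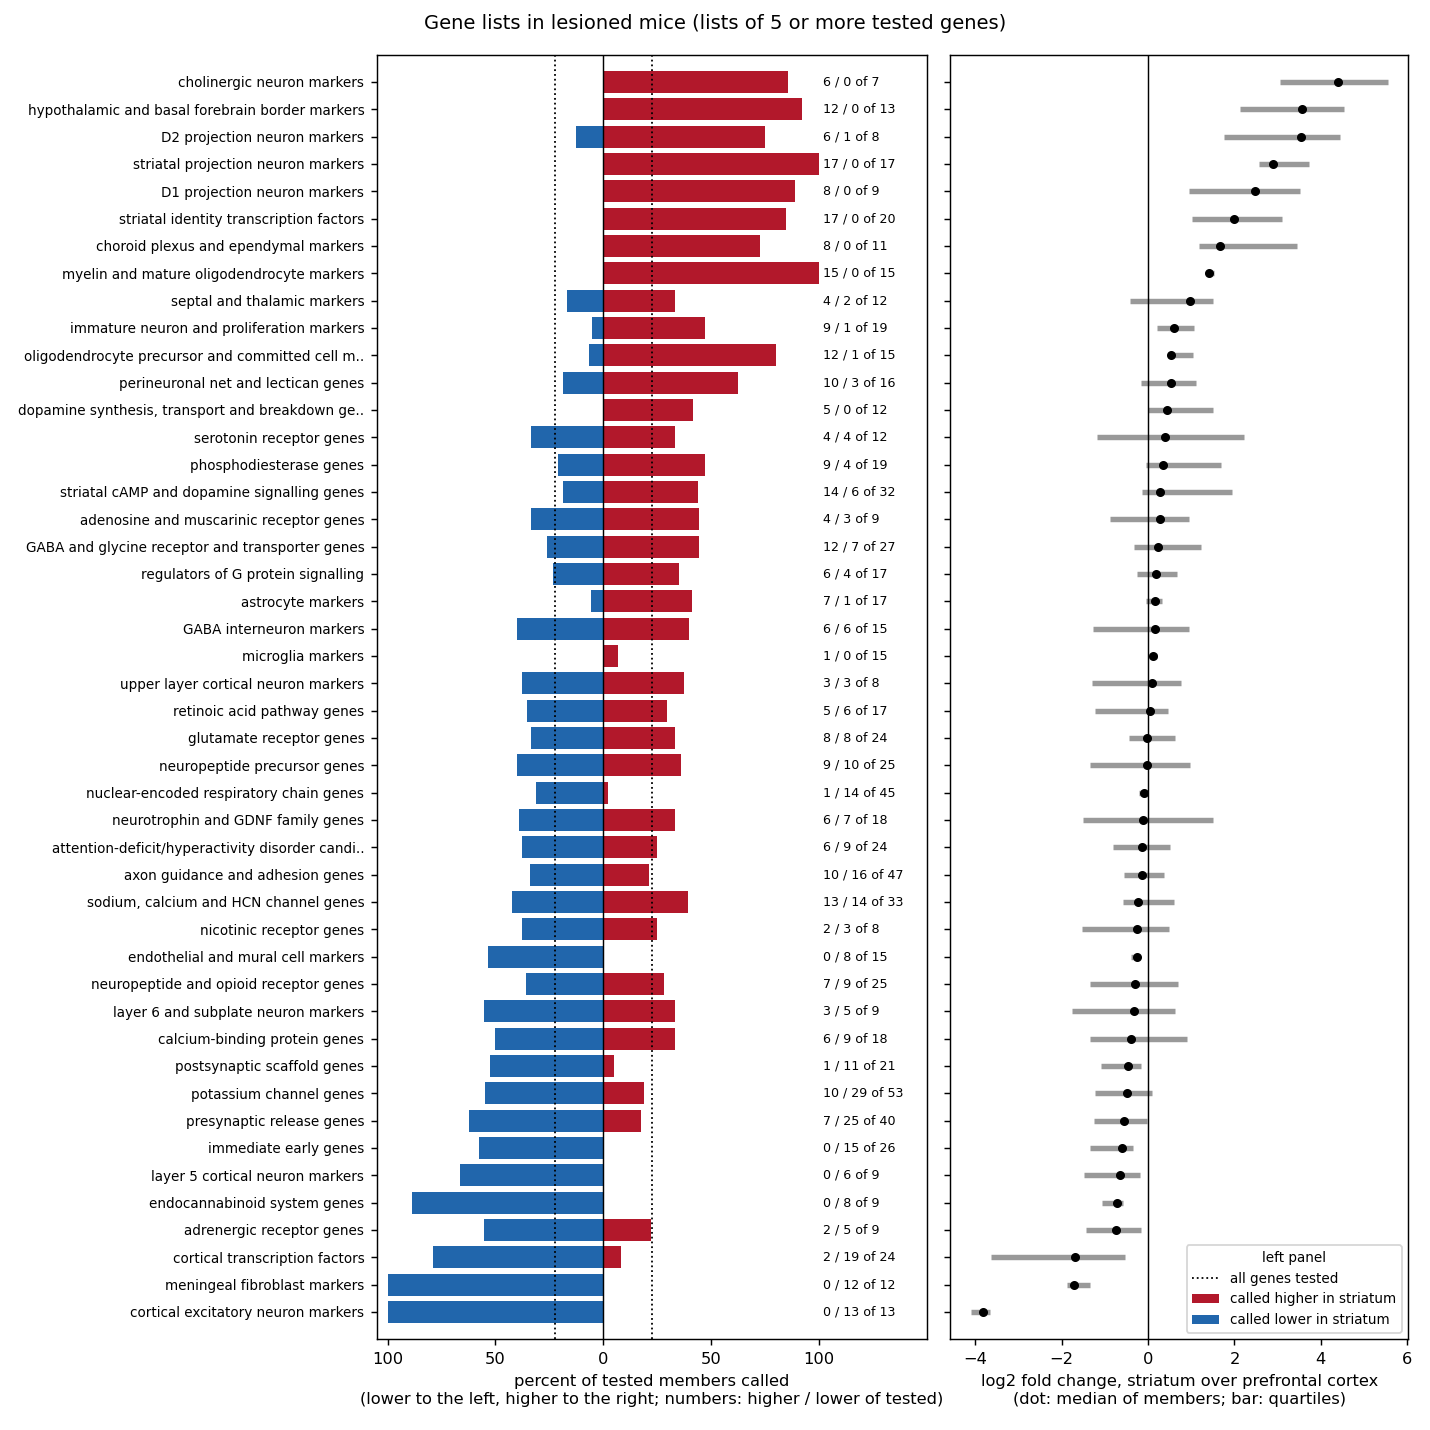
Left, percent of tested members called higher (red, to the right) or lower (blue, to the left) in the striatum of lesioned mice for the 46 gene lists with at least 5 tested members, with counts at the right and dotted lines at the shares of all genes tested (22.7% and 22.5%). Right, the median log2 fold change of each list with its quartiles; lists run from cortical excitatory neuron markers (median -3.83) at the bottom to cholinergic neuron markers (4.40) at the top.

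Of 17 retinoic acid pathway genes 5 were called higher and 6 lower (5 and 7 without striatal library 1; median log2 fold change 0.039), with the receptors opposed: Rarb (3.34) and Rxrg (3.46) were higher and Rara (-1.24) lower, and the binding protein Crabp1 was higher (4.26). Crabp1 was near the floor in the prefrontal cortex, with 2, 8 and 4 counts. Of 47 axon guidance and adhesion genes 10 were called higher and 16 lower (13 and 21 without striatal library 1; median -0.14). Efnb3, an ephrin that repels axons at the midline, was at 80.5, 64.2 and 76.4 CPM in the prefrontal cortex and 212, 242 and 229.8 CPM in the striatum (1.63, SE 0.10, adjusted p 2.45e-05), and the netrin receptors Unc5b (1.28) and Unc5a (-0.90) were opposed. Of 16 perineuronal net and lectican genes 10 were called higher and 3 lower (10 and 4 without striatal library 1; median 0.52), with the protease Adamts4 (1.38) higher. Of the higher members, Hapln2 is also on the myelin list and Vcan on the precursor and committed cell list. Of 45 nuclear-encoded respiratory chain genes 14 were called lower and 1 higher (17 and 1 without striatal library 1), none beyond 2-fold, with a median of -0.092 and the largest fall in Cox8a (-0.59, SE 0.094, adjusted p 0.00182). Of 24 candidate genes for attention-deficit/hyperactivity disorder 6 were called higher and 9 lower (8 and 10 without striatal library 1; median -0.13), among them Snap25, Bdnf and Mef2c, lower, and Htr1b, Foxp2 (1.82) and Nos1, higher.

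The region difference of control mice, measured in other libraries, was largely of the same genes. In the control libraries 6029 of 14239 tested genes were called (42.3%), 3039 higher in the striatum (21.3%) and 2990 lower (21%). Of 14057 genes tested in both, 4464 were called in both with the same direction, which is 70.1% of the calls in lesioned mice and 75% of those in control mice. Across these genes, which are not independent replicates, the fold changes had a Pearson r of 0.863 and a Spearman rho of 0.825. Of 811 genes called beyond 2-fold in lesioned mice and tested in controls, 808 had the same sign. The 17 projection neuron markers had a median of 2.89 in lesioned and 1.59 in control mice (16 of 17 called), and the sums of the list in the control libraries were 1831, 2155 and 2791 CPM in the prefrontal cortex and 6189.8, 4382 and 6715 CPM in the striatum. The 13 cortical excitatory markers had a median of -2.77 in control mice (7 of 13 called), where 1 striatal library held 1758.3 CPM of them and the others 308 and 421 CPM.

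The test of the difference between the 2 region differences called 12 of 14545 genes (0.0825%), 2 with a higher and 10 with a lower log2 fold change in lesioned mice (0.0138% and 0.0688%). No projection neuron, D1 class, D2 class or dopamine receptor gene was called, with interaction estimates of 1.46 (adjusted p 0.341) for Drd1, 2.42 (adjusted p 0.305) for Drd2, 1.71 (adjusted p 0.278) for Ppp1r1b and 1.69 (adjusted p 0.239) for Penk. Inhba, the activin beta A subunit, had 180, 208 and 182 counts in the lesioned prefrontal cortex and 346, 241 and 312 in the lesioned striatum, against 313, 265 and 227 in the control prefrontal cortex and 101, 146 and 173 in the control striatum. It was thus higher in the striatum of lesioned mice (log2 fold change 0.67) and lower in that of control mice (-1.05), a difference of 1.72 (SE 0.27, adjusted p 0.0393). Of the 10 genes with a lower difference, 3 are on the meningeal list (Slc22a6, Aldh1a2 and Slc6a13). The median of that list was -1.72 in lesioned and -0.25 in control mice, where 1 of 12 members was called, and its sums in control mice were 697, 679.7 and 756 CPM in the prefrontal cortex and 522, 631 and 507 CPM in the striatum. Fmod, a collagen-binding proteoglycan, had a difference of -2.22 (SE 0.24, adjusted p 0.0125) and Cux2 one of -0.66 (adjusted p 0.0287). The count rested on single libraries and on the tool: it was 1 to 3 without any 1 of the lesioned prefrontal libraries, 15 without lesioned striatal library 1, 172 without lesioned striatal library 2, 116 with DESeq2, 2 with limma-voom and 0 without control prefrontal library 1 or 2, with 1422 and 1458 genes at an unadjusted p below 0.05.

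**Figure D5:**
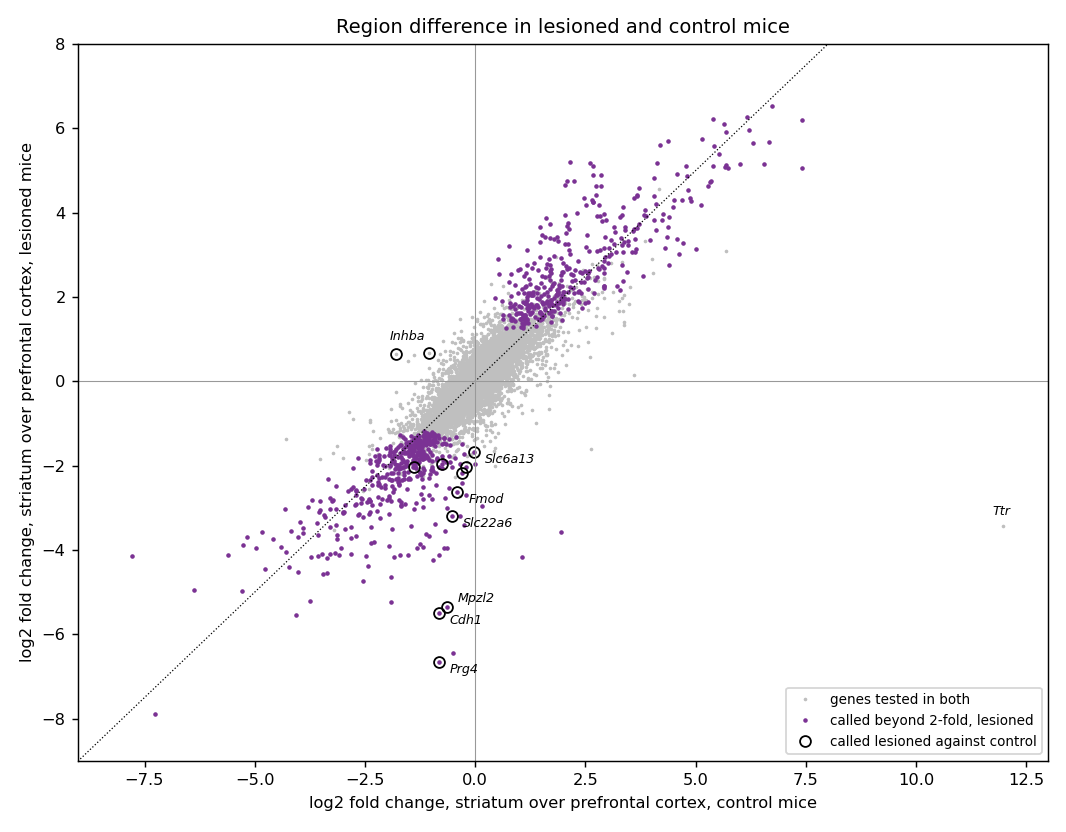
Log2 fold change of striatum over prefrontal cortex in lesioned mice (vertical axis) against the same in control mice (horizontal axis), 1 point per gene tested in both; purple points are genes called beyond 2-fold in lesioned mice, circles the 12 genes whose difference differed between lesioned and control mice, and the dotted line marks equality. Most points follow the line, while Prg4, Cdh1, Mpzl2, Slc22a6 and Fmod lie below it and Inhba above it.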

How the data were processed

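RNA was taken from prefrontal cortex and striatum at P24, and poly(A) libraries were made with a stranded kit from 500 ng of total RNA (RNA integrity number of at least 8.9) and sequenced as 101 bp pairs, per the labels' protocols. The authors deposited 1 table of raw counts per gene symbol. STAR 2.7.1a, featureCounts and the mm10 build are named in the submitters' processing notes, and no source used here gives the strand setting of the counting, and reads of overlapping and antisense genes may be mixed.

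From the 21872 symbols, 3732 at 0 throughout were left out, as were 1830 whose 12 values are all multiples of 11 (0.144% of counts), which leaves 16310. Low counts were removed with filterByExpr and libraries scaled by TMM, in R 4.3.3 with edgeR 4.0.16. Striatum was compared with prefrontal cortex by edgeR's quasi-likelihood test on the 6 lesioned libraries, with Benjamini-Hochberg adjustment over all tested genes. The same fit of the control libraries, and the difference of the 2 region differences in a fit of all 12, used the same test. CPM of single genes are scaled by the effective library size, and sums over marker lists by the total counts of each library. limma 3.58.1 and DESeq2 1.42.0 gave alternatives, as did other scalings, filters and treatments of the rows of multiples of 11, leaving out each library, and a replicate block. The code was tested on simulated data.

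Genes named were the 10 largest called changes per direction at a mean of at least 10 CPM with no overlap of libraries, up to 4 members per list with the smallest p, a fixed set of marker genes and the 5 largest differences per direction between lesioned and control mice at a mean of at least 1 CPM; other list members were named after their values were seen. Some genes counted in the lists are not reported here by name. The members and the gene lists were chosen with earlier results of these data known. Gene positions are from GENCODE vM21 and promoter windows from RefSeq on GRCm38.p6, the mm10 assembly.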

Additional observations from a re-analysis of the deposited data

Results flagged for a closer look

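The region difference itself differed between lesioned and control mice, by the interaction term of edgeR's fit of all 12 libraries, for 12 genes, 11 of which are given here as the log2 fold change in lesioned minus that in control mice. The call depends on the tool and on single libraries: 2 genes were called with limma-voom, and 0 without control prefrontal library 1 or 2 (1422 and 1458 at an unadjusted p below 0.05). The difference was higher in lesioned mice for Inhba (1.72). It was lower for the upper layer factor Cux2 (-0.66), for Thbd (-1.21), for the GABA transporter gene Slc6a13 (-1.67), for the extracellular matrix genes Ogn (-1.82) and Fmod (-2.22), for the retinoic acid enzyme Aldh1a2 (-1.87) and for the transporter Slc22a6 (-2.68). Cdh1 (-4.67), Mpzl2 (-4.72) and Prg4 (-5.85) had at most 3 counts in each lesioned striatal library, so these fitted values depend on the prior count. Their counts in the lesioned prefrontal cortex were 50, 50 and 52 for Cdh1, 45, 46 and 47 for Mpzl2 and 106, 117 and 117 for Prg4. The summed meningeal markers, which 3 of the 12 genes belong to, moved in the same direction, and their part in the other genes was not tested.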

How the results depend on the processing

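The count of genes that differed between regions kept within 1.5 times of 6426 under every alternative, from 5853 with the replicate block to 8035 with limma-voom and sample quality weights, and from 4687 to 7721 without 1 library. Beyond 2-fold it was 811 with the replicate block and 532 to 1202 without 1 library, the lowest without prefrontal library 3. The replicate numbers were not treated as pairs, since no label says that equal numbers mark the same animal. Deviations of same-numbered libraries had correlations of 0.0965, 0.0467 and -0.00961 in lesioned mice and 0.0806, 0.00457 and 0.093 in control mice. With only 3 libraries per group, these values cannot show whether the numbers mark pairs. The difference between lesioned and control mice, 12 genes, was less stable: 0 with the replicate block (1646 at an unadjusted p below 0.05), 5 with rows of multiples of 11 kept, 116 with DESeq2, 2 with limma-voom, 86 with limma-voom and sample quality weights, and 0 to 172 without 1 library. Without lesioned striatal library 1 and control striatal library 2 together, a choice made after seeing the data, it was 101. The causes were not tested. The Ttr log2fc in lesioned mice reversed, from -3.43 to 1.96 without prefrontal library 2 (range without 1 library -4.23 to 1.96). Of 3431 values for named genes under alternatives, 3395 kept direction and side of the threshold, against 158 of 276 for the 12 genes that differed between lesioned and control mice, each of which lost its call under at least 1 alternative. Of 833 list medians 768 moved by less than the spread between libraries. Only 3 libraries per group, 1 of them apart in the striatum, limit the precision.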

Other observations

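Some genes were high in 1 striatal library of the lesioned mice only, as counts. Pmch, the precursor of melanin-concentrating hormone, had 2, 286 and 1 counts in the 3 striatal libraries. Nr4a2 had 718, 139 and 90 counts there, against 589, 455 and 428 in the prefrontal libraries. By a rule chosen after the data were seen, Prg4 (lubricin) was the 1 gene with at most 3 counts in every library of one region and at least 100 in every library of the other: it had 0, 3 and 0 counts in the striatum.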
